A study of Mus musculus with 59 samples.

Results

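The genes described here are 9 epidermal barrier genes, Krt1, Krt10, Krt15, Flg, Flg2, Lor, Krtdap, Sbsn and Dmkn, taken by symbol from the 55421 genes of a mouse mammary tumor RNA-seq series and from its 33282 rows of intronic reads. They were chosen by their measured levels, which had been seen high in a few methylparaben tumors, so their values in methylparaben tumors are given as a description, with no test. The series holds 59 primary mammary tumors of MMTV-PyMT mice (the B6.FVB-Tg(MMTV-PyVT)634Mul/LellJ line, PyMT (+/-)), in which the mouse mammary tumor virus promoter drives the polyoma middle T oncogene. All 3 groups carry the transgene: 19 vehicle tumors, 20 methylparaben tumors and 20 propylparaben tumors. Methylparaben and propylparaben are preservatives, the methyl and propyl esters of para-hydroxybenzoic acid, and the series asks what long-term exposure to low levels of them does to mammary tumors. Total RNA came from flash-frozen, pulverized tumor tissue, so each value mixes all the cells of a tumor piece. No source used here gives doses, exposure times or ages. Nor do the labels say that each tumor came from a separate animal, so a p-value measures only how these samples spread, which may be technical. Tumors are named by group and by a number that follows the order of the records and pairs nothing.

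The epidermis is a layered epithelium that makes the skin barrier. Cells that leave its basal layer switch on the keratin partners Krt1 and Krt10, fill keratohyalin granules with profilaggrin and loricrin, and end as flat dead cells in which transglutaminases crosslink loricrin, small proline-rich proteins and late cornified envelope proteins into a tough shell. A mammary gland lies just under the skin and its own epithelium is simple, without these layers, although mammary tumors can form squamous patches.

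The 9 genes lie in 4 places of the mouse genome (GRCm38, GENCODE M21). Krt1, a type II keratin, is on the minus strand at chr15:101845426-101850794. The type I keratins Krt10 (chr11:99385254-99389364) and Krt15 (chr11:100131758-100135928), both on the minus strand, lie within 750.7 kb of each other. Lor (chr3:92080271-92083142, minus strand), Flg2 (chr3:93197278-93221391, plus strand) and Flg (chr3:93273523-93293686, plus strand) belong to the epidermal differentiation complex, and 52 protein-coding genes lie in the 1213.4 kb from Lor to Flg. Sbsn (chr7:30751471-30756134), Dmkn (chr7:30763756-30781063) and Krtdap (chr7:30787896-30791097), all on the plus strand, are the only 3 annotated genes lying wholly within a stretch of 39.6 kb. They encode suprabasin, dermokine and keratinocyte differentiation-associated protein, secreted proteins of the upper epidermis. Krt10 overlaps Gm11940 on the other strand, and no source used here gives the strand setting of the counting. Flg holds the pseudogene Rplp0-ps1 and Sbsn overlaps Tmem147os, each on the same strand, where a strand setting would not separate reads. Reads of these 3 genes are uncertain to that extent.

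RefSeq promoter sequence (GRCm38.p6) was matched for 7 of the 9 genes: Krt10, Flg, Flg2, Lor, Krtdap, Sbsn and Dmkn. The last 200 bases before the RefSeq start are shown for 5 of them, because these are the genes whose levels turn the results below: a keratin of the suprabasal layers, both granule proteins and a pair of close neighbors that peaked in different tumors. Capitals mark matches to TGANTCA, a site of AP-1 transcription factors, and to TATAAA, the core of a TATA box. The stretches are chr11:99389365-99389564 for Krt10 and chr3:92083143-92083342 for Lor on the minus strand, and chr3:93273346-93273545 for Flg, chr7:30787705-30787904 for Krtdap and chr7:30763556-30763755 for Dmkn on the plus strand.
Krt10: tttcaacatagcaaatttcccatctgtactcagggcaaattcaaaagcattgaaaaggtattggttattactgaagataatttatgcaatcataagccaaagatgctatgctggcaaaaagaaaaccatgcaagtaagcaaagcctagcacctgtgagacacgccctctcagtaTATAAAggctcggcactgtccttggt
Flg: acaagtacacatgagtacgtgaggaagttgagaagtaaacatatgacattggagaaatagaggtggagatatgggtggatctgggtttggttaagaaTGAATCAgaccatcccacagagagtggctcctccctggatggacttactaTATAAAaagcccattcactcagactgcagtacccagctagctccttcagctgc
Lor: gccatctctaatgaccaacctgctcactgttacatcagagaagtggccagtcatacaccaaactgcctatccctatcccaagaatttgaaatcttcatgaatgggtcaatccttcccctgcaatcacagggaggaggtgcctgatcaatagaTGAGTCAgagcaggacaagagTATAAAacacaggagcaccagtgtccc
Krtdap: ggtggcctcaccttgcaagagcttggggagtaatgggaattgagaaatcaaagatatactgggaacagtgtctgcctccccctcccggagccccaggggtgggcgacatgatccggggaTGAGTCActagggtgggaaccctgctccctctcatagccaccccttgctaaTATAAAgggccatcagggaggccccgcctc
Dmkn: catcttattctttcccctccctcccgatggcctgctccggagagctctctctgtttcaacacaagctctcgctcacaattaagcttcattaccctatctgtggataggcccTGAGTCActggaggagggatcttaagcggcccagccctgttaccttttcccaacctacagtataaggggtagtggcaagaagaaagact

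Letters were searched over 250 bases before the start, on both strands, and a gene counted as matched if any of its RefSeq promoters held them. TGANTCA was found in 6 of the 7 genes, all but Krt10, and in 7.82 % of the 27025 genes with such promoters. Its first base stood 48 bases before the start of Lor, 69 before Flg2, 81 before Krtdap, 89 before Dmkn, 103 before Flg and 119 before Sbsn. TATAAA was found in 4 of the 7 (Krt10, Flg, Lor and Krtdap) and in 14.3 % of all these genes. TTGCNNAA, a C/EBP site, was found in 5 of the 7 against 10.8 %, and CCACCC, a site of KLF factors, in 6 of the 7 against 30.6 %. The letters GCCNNNGGC (AP-2) were in none of the 7 and in 15.4 % of all, and AACCGGTT (Grainyhead) was in none of the 7 and in 0.137 % of all. These matches describe the letters of the window, and no binding was measured.

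Levels below are the deposited normalized counts, which are reads scaled for library size and composition but not for gene length, so they are compared between tumors and not between genes. Libraries held 1166502 to 2032789 reads on genes, and 1 read was worth 0.323 to 0.664. A gene listed at 0 in a tumor could therefore have a level of up to 0.969 to 1.99, the worth of 3 reads, counting error only. In RNA from whole tumor pieces, fewer cells of a type and less RNA per cell cannot be told apart.

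In most tumors Krt1, Flg, Flg2, Lor and Krtdap were low or at 0, and their high levels came from a handful of tumors. Krt1 was at 0 in 40 of 59 tumors, Flg in 45, Flg2 in 53, Krtdap in 39 and Lor in 28, whereas Krt10, Krt15 and Dmkn were above 0 in all 59 and Sbsn in 54. Methylparaben tumor 10 was among the 5 highest tumors for all 9 genes. Methylparaben tumors 6 and 7 were among the 5 highest for 6 genes each, methylparaben tumor 20 and vehicle tumor 8 for 5 each, vehicle tumor 13 for 4 and vehicle tumor 18 for 3. No propylparaben tumor was among the 5 highest for more than 1 gene. The high tumors were thus found in the vehicle group as well as in the methylparaben group. Summed over the 9 genes, levels were 17.8 to 174 (median 39.7) in vehicle, 19.9 to 983 (median 43.1) in methylparaben and 18.9 to 82.0 (median 31.4) in propylparaben tumors.

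**Figure D1:**
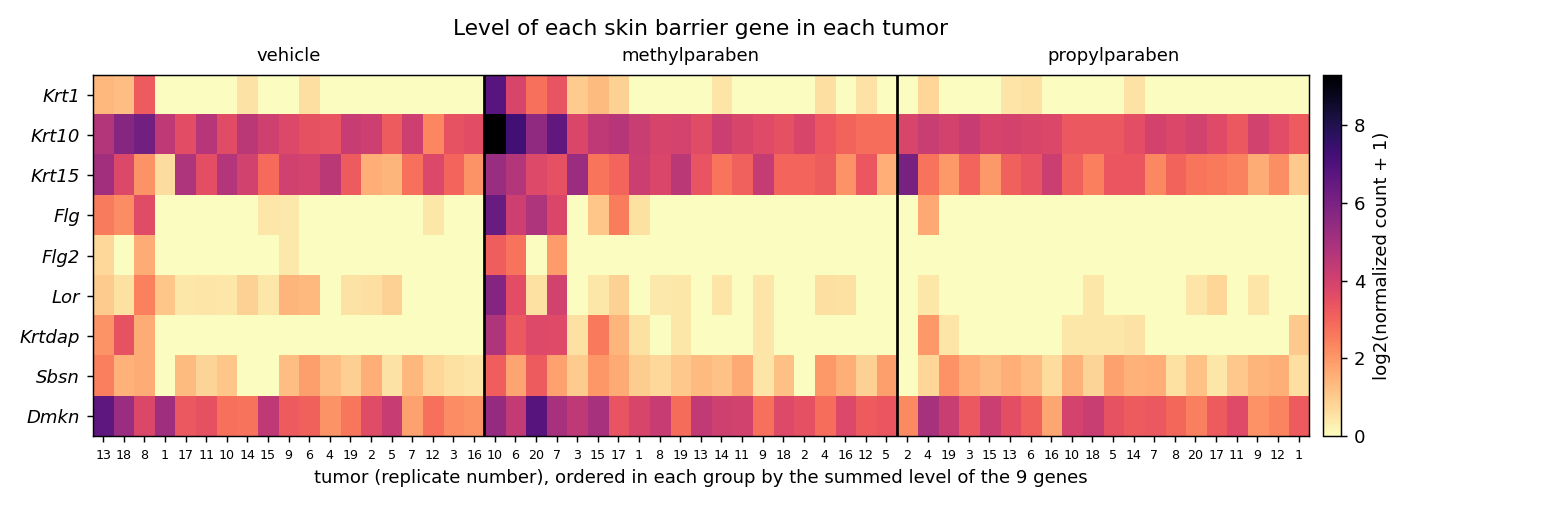
Level of each of the 9 genes (rows) in each of the 59 tumors (columns, replicate number, ordered within each group by the summed level), as log2(normalized count + 1). Dark cells sit in a few columns of the vehicle and methylparaben groups, above all methylparaben tumor 10, while Krt10, Krt15 and Dmkn have a signal in every tumor.

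Krt10 and Krt1 form the keratin filament pair of the suprabasal layers. Krt10 had a lowest, median and highest level of 4.05, 15.7 and 70.7 in vehicle tumors, 5.98, 13.7 and 619.9 in methylparaben tumors and 8.19, 13.1 and 18.2 in propylparaben tumors. The 3 medians lay close together and the groups overlapped, and the groups differed in their highest tumors. The highest levels of Krt10 were 619.9, 153.5 and 94.6 in methylparaben tumors 10, 6 and 7, then 70.7 in vehicle tumor 8, 51.3 in vehicle tumor 18, 44.5 in methylparaben tumor 20 and 24.9 in vehicle tumor 13. The mean was 56.1 ± 137 (SD, n = 20) in methylparaben tumors and 26.4 without methylparaben tumor 10, against 19.3 ± 16 (SD, n = 19) in vehicle and 12.6 ± 2.98 (SD, n = 20) in propylparaben tumors.

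Krt1 was a gene of a few tumors only. It was above 0 in 5 of 19 vehicle, 10 of 20 methylparaben and 4 of 20 propylparaben tumors. Its highest levels were 108 in methylparaben tumor 10 (261 reads), 13.4 in tumor 6 and 9.37 in tumor 7 of that group, 8.22 in vehicle tumor 8 and 5.81 in methylparaben tumor 20. These are the tumors that led for Krt10, with the exception of vehicle tumor 18, where Krt1 was 1.399 (3 reads). The highest propylparaben tumor had 0.736.

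Krt15, a keratin of basal cells and of the hair follicle bulge, went its own way. Its lowest, median and highest levels were 0.563, 10.5 and 32.8 in vehicle, 1.99, 9.25 and 37.5 in methylparaben and 1.02, 5.45 and 64.7 in propylparaben tumors. The highest tumor of all was propylparaben tumor 2 (64.7), followed by methylparaben tumors 10 (37.5) and 3 (36.9) and vehicle tumor 13 (32.8). In propylparaben tumor 2 Krt1, Flg, Flg2, Lor, Krtdap and Sbsn were all at 0. The highest level in the propylparaben group was 64.7 and the next 16.9, so 1 tumor set its mean of 9.00 ± 13.6 (SD, n = 20), which was 6.06 without it.

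Loricrin is the most abundant protein of the cornified envelope, and filaggrin bundles keratin filaments before it is broken down into the moisturizing factors of the outer skin. Lor reached 53.2 in methylparaben tumor 10, 15.1 in tumor 7, 11.02 in tumor 6 and 4.52 in vehicle tumor 8, and no other tumor exceeded 1.70. Flg reached 81.6 in methylparaben tumor 10, 27.1 in tumor 20, 16.1 in tumor 6 and 13.04 in tumor 7, and 11.5 in vehicle tumor 8. In methylparaben tumor 20 Flg was thus second of 59 while Lor was 0.484, the worth of 1 read. Flg2, a filaggrin relative, was above 0 in 6 tumors: 7.83, 5.51 and 2.85 in methylparaben tumors 10, 6 and 7, and 2.05, 0.656 and 0.339 in vehicle tumors 8, 13 and 9.

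Among propylparaben tumors the granule genes were near the limit of detection. Lor was above 0 in 5 of 20 (highest 0.725), Flg in 1 of 20 (2.21 in propylparaben tumor 4) and Flg2 in none. In vehicle tumors Lor was above 0 in 14 of 19, with a median of 0.437, about the worth of 1 read.

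The 3 neighbors on chromosome 7 did not share 1 ranking of tumors. Krtdap was highest in methylparaben tumors 10 (27.2), 20 (12.1) and 7 (11.8), then in vehicle tumor 18 (9.79) and methylparaben tumor 6 (8.66), and was at 0 in 16 of 19 vehicle, 10 of 20 methylparaben and 13 of 20 propylparaben tumors. Dmkn was highest in methylparaben tumor 20 (109.8) and vehicle tumor 13 (100.4), with methylparaben tumor 10 at 40.4 and vehicle tumor 18 at 36.8. Sbsn was highest in methylparaben tumor 20 (8.22, 17 reads) and methylparaben tumor 10 (7.83), with vehicle tumor 13 at 4.59. In vehicle tumor 13, where Dmkn was 100.4, Krtdap was 3.28.

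Dmkn and Sbsn also had a level in ordinary tumors. The lowest, median and highest level of Dmkn was 2.48, 8.14 and 100.4 in vehicle, 5.90, 14.4 and 109.8 in methylparaben and 2.33, 8.55 and 30.5 in propylparaben tumors. For Sbsn the median was 1.16 in vehicle, 1.70 in methylparaben and 1.45 in propylparaben tumors, a few reads a tumor. The groups overlapped for both genes.

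**Figure D2:**
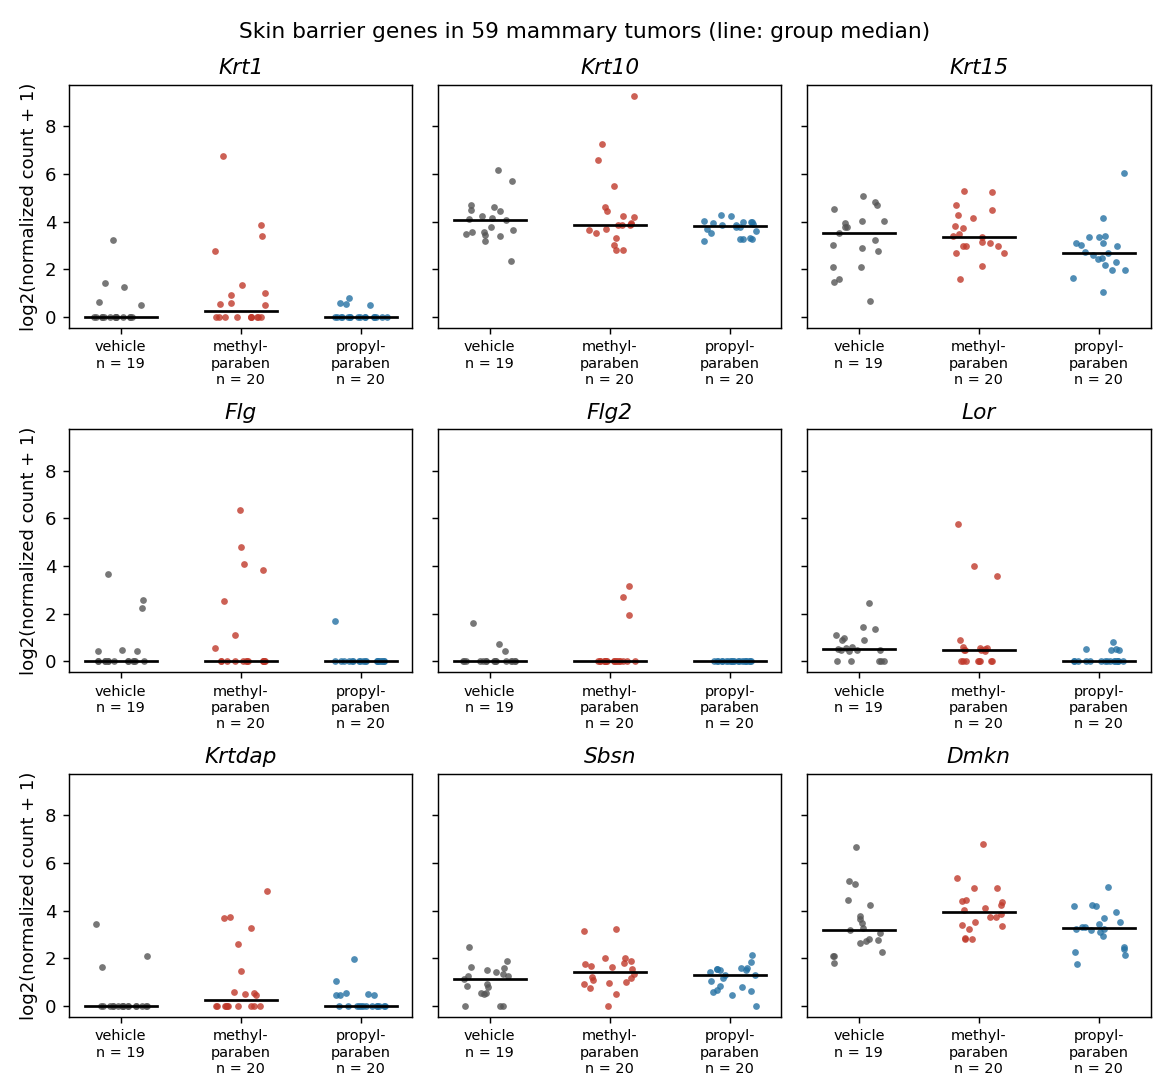
Level of each of the 9 genes in each tumor as log2(normalized count + 1), with 1 point a tumor and a line at the median of each group (19 vehicle, 20 methylparaben, 20 propylparaben tumors). For Krt10 the 3 medians (15.7, 13.7 and 13.1 before the log) are close and single methylparaben tumors stand far above them, and among propylparaben tumors the highest point overall is for Krt15 (64.7).

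Propylparaben and vehicle tumors were compared with limma on log2(value + 1), with Benjamini-Hochberg adjustment over all 14487 genes whose mean over the 59 tumors was at least 1. The genes were chosen for high levels in methylparaben tumors against vehicle tumors, so the vehicle tumors are not free of that choice. The methylparaben tumors also entered both the shared estimate of spread and that filter. Krt1, Flg, Lor and Krtdap passed the filter only through methylparaben tumors: over the 39 vehicle and propylparaben tumors their means were 0.3662, 0.6007, 0.4314 and 0.5403. Without methylparaben tumor 10, the means of Krt1 and Lor over all groups were 0.820 and 0.813. In this comparison of gene levels these 4 genes are therefore given by their values, with no p. Flg2, with a mean of 0.326, did not enter the fit. Krt10, Krt15, Sbsn and Dmkn passed the filter in the 39 tumors as well.

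None of these 4 genes passed an adjusted p of 0.05 in the fit of 59 tumors, which called 0.0276 % of all genes tested. None had an unadjusted p under 0.05 either, where 1292 of all genes were higher and 1375 lower. Krt10 differed by -0.32 ± 0.33 (SE; 95 % interval -0.98 to 0.34; limma adjusted p = 0.6237) and Krt15 by -0.43 ± 0.33 (SE; limma adjusted p = 0.4944). Dmkn differed by -0.16 ± 0.31 (SE; limma adjusted p = 0.8147) and Sbsn by 0.14 ± 0.21 (SE; limma adjusted p = 0.7573). Each interval spans 0, so no difference from vehicle was shown, and none shows that the groups were alike. For Dmkn the sign rested on vehicle tumor 13, without which the difference was 0.02, and without vehicle tumor 8 the difference of Krt10 was -0.20.

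A fit of the 39 vehicle and propylparaben tumors alone, with the filter taken over them, was chosen after seeing the data. It tested 14407 genes and called 0 %, with 17.3 % at an unadjusted p under 0.05. Krt10 then differed by -0.32 ± 0.20 (SE; interval -0.73 to 0.08; limma adjusted p = 0.4007), Krt15 by -0.43 ± 0.34 (limma adjusted p = 0.5134), Dmkn by -0.16 ± 0.32 (limma adjusted p = 0.8172) and Sbsn by 0.14 ± 0.19 (limma adjusted p = 0.7286). None of the 4 had an unadjusted p under 0.05 here. With edgeR and DESeq2 on recovered reads of all 59 tumors none of the 4 passed, and DESeq2 gave no adjusted p for Sbsn.

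The 4 genes that entered through methylparaben tumors also had lower mean log2 levels in propylparaben than in vehicle tumors. The difference was -0.53 for Lor, -0.43 for Flg, -0.25 for Krt1 and -0.11 for Krtdap. Mean levels in vehicle and propylparaben tumors were 0.764 and 0.115 for Lor, 1.12 and 0.110 for Flg, 0.643 and 0.104 for Krt1, and 0.796 and 0.297 for Krtdap, so all lie near the worth of a few reads. Their size depended on the method, and tests of the recovered reads gave -2.4 for Lor, -2.3 for Krt1 and -1.39 for Krtdap (DESeq2) and -2.76 for Flg (edgeR). For Krtdap the sign rested on 1 tumor, since without vehicle tumor 18 the difference was 0.06. Without vehicle tumor 8 the difference was -0.09 for Krt1 and -0.26 for Flg.

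For methylparaben against vehicle tumors, the contrast that chose the genes, differences are given with no test. The same fit called 1.32 % of all genes tested, 0.683 % higher and 0.635 % lower. All 8 genes lay above 0, from 0.25 for Krt15 and Lor and 0.36 for Krt10 to 0.65 for Flg, 0.70 for Krtdap and 0.71 for Krt1, with 0.45 for Sbsn and 0.61 for Dmkn. The median was 0.525 against 0.00527 over all genes. Lists of other tissues had medians as large in the same contrast: 1.22 for 12 fat cell genes, 1.2 for 12 skeletal muscle genes and 0.633 for 12 fibroblast genes, with all 12 above 0 in each list. The muscle sum had a median of 13.3 among vehicle tumors, 276 among methylparaben tumors and 180.07 among propylparaben tumors, and the fat sum medians of 302.9, 887 and 423. Their part in the differences of the 8 genes was not tested. Without methylparaben tumor 10 the difference was 0.10 for Krt10, 0.38 for Flg and 0.51 for Krtdap, and without methylparaben tumor 7 it was 0.09 for Lor. Both contrasts use the same vehicle tumors, so their signs are not independent.

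Propylparaben against methylparaben tumors, which also uses the tumors that chose the genes, gave differences below 0 for all 8 genes, from -0.31 for Sbsn to -1.08 for Flg, and again no test is given. Over all genes 0 % were called in that contrast by limma, with 114 genes higher and 197 lower at an unadjusted p under 0.05 and 17 called by edgeR and 0 by DESeq2. Krt1 differed by -0.96 and Krtdap by -0.81 on the log2 scale. Mean levels were 0.104 in propylparaben and 7.04 in methylparaben tumors for Krt1, and 0.297 and 3.41 for Krtdap.

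**Figure D3:**
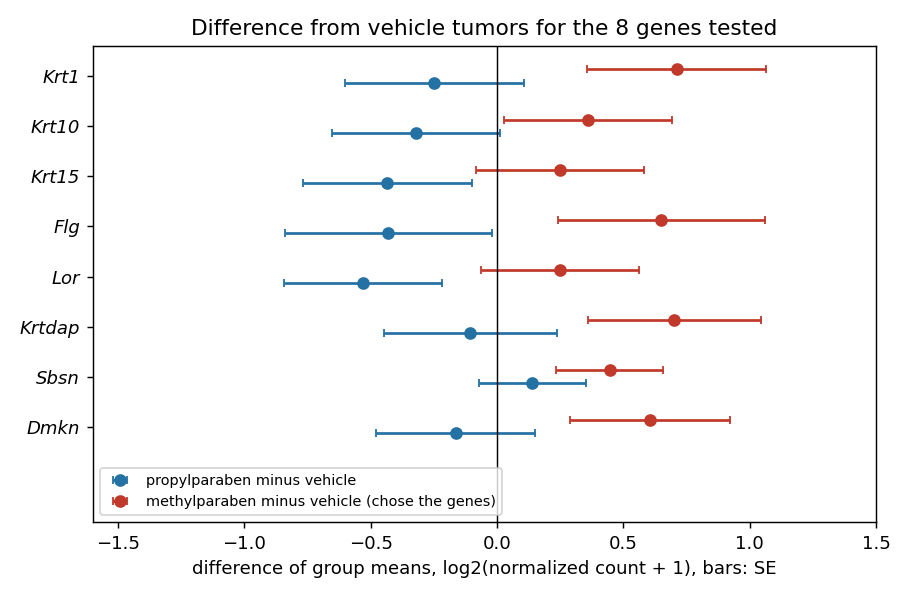
Difference of group means from vehicle for the 8 genes in the fit, on the log2(normalized count + 1) scale, with bars of 1 SE. Propylparaben points lie from -0.53 (Lor) to 0.14 (Sbsn), with Lor, Flg, Krt1 and Krtdap in the fit only through methylparaben tumors, and methylparaben points, all above 0, belong to the contrast that chose the genes.

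Intronic reads, a second deposited readout of the same libraries, were scarce for these genes. Krt15, Flg2, Lor and Sbsn were listed at 0 in the introns of all 59 tumors, and Krt1 was above 0 in 2, Krt10 in 4 and Flg in 6. Krtdap was above 0 in 14 tumors and Dmkn in 38. The intronic level of Krtdap was 90.0 in methylparaben tumor 10, 34.6 in tumor 7, 29.4 in vehicle tumor 18, 27.05 in methylparaben tumor 20 and 21.4 in tumor 6. These are the 5 tumors with the highest Krtdap in the gene table. The highest intronic levels of Dmkn were 11.6 in methylparaben tumor 20 and 9.97 in vehicle tumor 13, again the leading tumors of the gene table. The worth of 1 intronic read is not given here. The lowest intronic level above 0 among these genes was 1.32 (Dmkn in methylparaben tumor 16), above the worth of 1 read in the gene table. In methylparaben tumor 20 the intronic level of Flg was 3.86, so the intronic levels of Dmkn may stand for few reads. For propylparaben against vehicle, limma gave an intronic difference of -0.24 ± 0.49 (SE; adjusted p = 0.8808) for Krtdap and -0.38 ± 0.35 (SE; adjusted p = 0.6885) for Dmkn, where 0 % of 14281 intron rows were called. The methylparaben tumors entered the spread of that fit too. Krtdap introns were above 0 in only 3 of 19 vehicle and 3 of 20 propylparaben tumors.

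**Figure D4:**
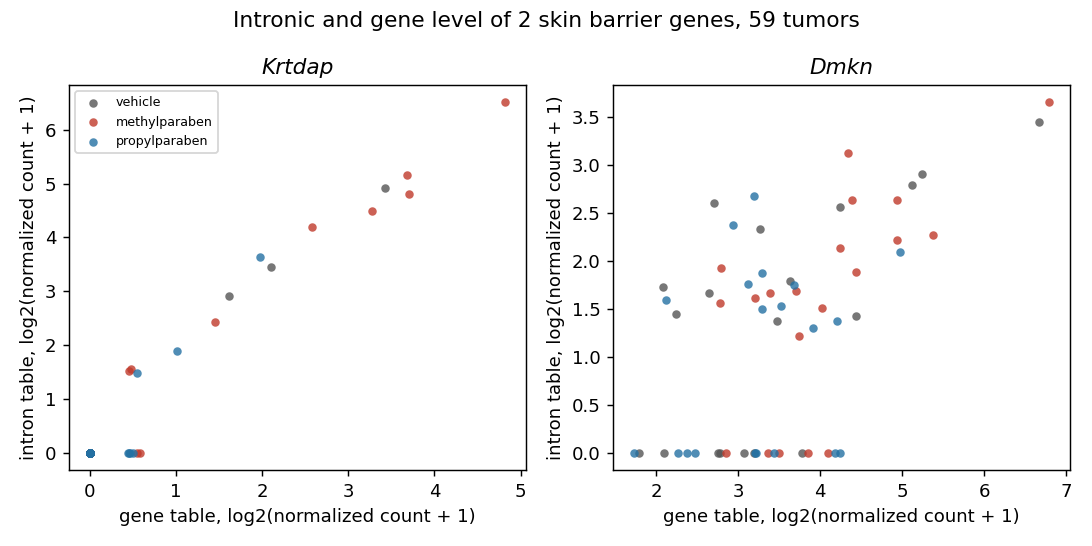
Intronic level (vertical axis) against gene level (horizontal axis) of Krtdap and Dmkn in 59 tumors, both as log2(normalized count + 1), with the tables normalized separately. Tumors high for Krtdap in the gene table are high in its introns, up to methylparaben tumor 10 (27.2 and 90.0 before the log), and for Dmkn methylparaben tumor 20 and vehicle tumor 13 lead in both.

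Whether the genes moved together was tested in vehicle and in propylparaben tumors alone, against Krt10, on log2(value + 1), with 2-sided permutation tests of 100000 resamples adjusted over 15 relations (Flg2 was at 0 in all propylparaben tumors). In the 19 vehicle tumors Krt10 was correlated with Krt1 (r = 0.75, adjusted permutation p = 0.00675; rho = 0.56, adjusted p = 0.0952), Flg (r = 0.72, adjusted p = 0.0133; rho = 0.38, adjusted p = 0.281) and Krtdap (r = 0.70, adjusted p = 0.0142; rho = 0.63, adjusted p = 0.0264). Flg2 (r = 0.59; rho = 0.42, adjusted p = 0.225) and Lor (r = 0.56; rho = 0.46, adjusted p = 0.225) each had an adjusted permutation p of 0.0465 for r. Krtdap was above 0 in 3 of the 19 tumors and Krt1 in 5, so these relations rest on few tumors. The correlations of Krt10 with Dmkn (r = 0.47, adjusted permutation p = 0.113; rho = 0.43), Sbsn (r = 0.24; rho = 0.24) and Krt15 (r = -0.13; rho = -0.04) did not pass. Vehicle tumors 8 and 12 are farthest from the median of Krt10. Without them r was 0.74 for Krtdap (adjusted permutation p = 0.0499), 0.63 for Krt1 and 0.66 for Flg (both 0.0588), 0.18 for Flg2 and 0.13 for Lor (both 0.917), so the relations of Flg2 and Lor rested on those 2 tumors. Among the vehicle tumors left, Krtdap was above 0 only in tumors 13 (3.28) and 18 (9.79), so its r rested on these. In the 20 propylparaben tumors, where Krt10 spanned only 8.19 to 18.2, no relation passed, with r from -0.06 for Krtdap and Dmkn to 0.35 for Flg (adjusted permutation p = 0.323; rho = 0.34).

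The 15 genes whose pattern was most like the mean log2 level of the 9 genes over all 59 tumors, of 14476 compared, included 6 from the skin lists described below (Stfa3, Klk7, Krt6b, Krt16, Rptn and Asprv1), with no test of enrichment. They were led by Stfa3 (r = 0.94), Calm4 (r = 0.91), Cstdc5 (r = 0.90) and Dsg1a (r = 0.89). Stfa3 and Cstdc5 belong to the stefin A group of cysteine protease inhibitors, whose copies are nearly identical and can share reads, Calm4 is a calmodulin-like protein of skin, and Dsg1a is a desmoglein of the suprabasal desmosomes. Klk7 (0.77), a protease that sheds dead skin cells, Crct1 (0.75), 2310046K23Rik (0.72), Dsc3 (0.66), Krt6b and Dsg3 (0.62 each), Krt16 (0.60), Rptn (0.57), Dapl1 and Asprv1 (0.54 each) and Ly6g6c (0.53) followed. Because 2 tumors weigh heavily in such a measure, r was computed again without methylparaben tumors 10 and 6, and was 0.89 for Stfa3 and Calm4 and 0.26 for Dapl1. Over the 39 vehicle and propylparaben tumors alone it was 0.88 for Calm4, 0.87 for 2310046K23Rik and 0.16 for Dsc3. These values describe likeness over tumors that share their libraries, and no test is attached to them.

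The high tumors did not all carry the same skin genes. Tchh, the trichohyalin of the inner root sheath of hair, was 494 in methylparaben tumor 20, 111 in vehicle tumor 18, 109 in vehicle tumor 13, 50.3 in methylparaben tumor 15, 40.05 in vehicle tumor 9 and 25.4 in propylparaben tumor 4. In methylparaben tumors 10, 6 and 7 and vehicle tumor 8, the 4 tumors with the highest Lor, it was 8.66, 3.54, 4.08 and 2.88, beside a median over all tumors of 3.43. The inner root sheath keratin Krt73, chosen after its values were seen, was 119, 53.2, 30.5, 16.4, 5.43 and 6.26 in these 6 tumors with high Tchh and at most 0.412 in the 4 with high Lor. The related sheath keratins Krt25 and Krt71, chosen in the same way, did not separate the tumors as cleanly. Krt25 was 69.2, 42.9, 16.08, 7.62, 27.8 and 3.31 in the 6, 4.53 in methylparaben tumor 10 and 0 in the other 3 with high Lor. Krt71 was 9.19, 1.86, 1.64, 1.52, 14.9 and 0.736 in the 6, 1.24 in methylparaben tumor 10 and 0 in the other 3. Among the 6, Lor was highest in vehicle tumor 9 (1.70) and vehicle tumor 13 (0.985) and was the worth of 1 read in each of the others.

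Other barrier genes differed between the same tumors. Klk10, a skin protease also chosen after its values were seen, was 187, 64.8, 13.8, 12.95 and 23.2 in methylparaben tumor 20, vehicle tumors 18 and 13, methylparaben tumor 15 and propylparaben tumor 4, but 1.36 in vehicle tumor 9. In the 4 tumors with high Lor it was at most 2.06. It was not limited to tumors with high Tchh, since vehicle tumor 1, with a Tchh of 1.13, had a Klk10 level of 149, second of 59. Rptn, a filaggrin relative, was 71.6 in methylparaben tumor 20 and 12.1 in vehicle tumor 18, and at most 1.65 in the 4. Hrnr, another filaggrin relative, was 14.8 in methylparaben tumor 10 and 13.1 in methylparaben tumor 20, high on both sides. The same held for Calm4, at 118 and 72.1 in those tumors.

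**Figure D5:**
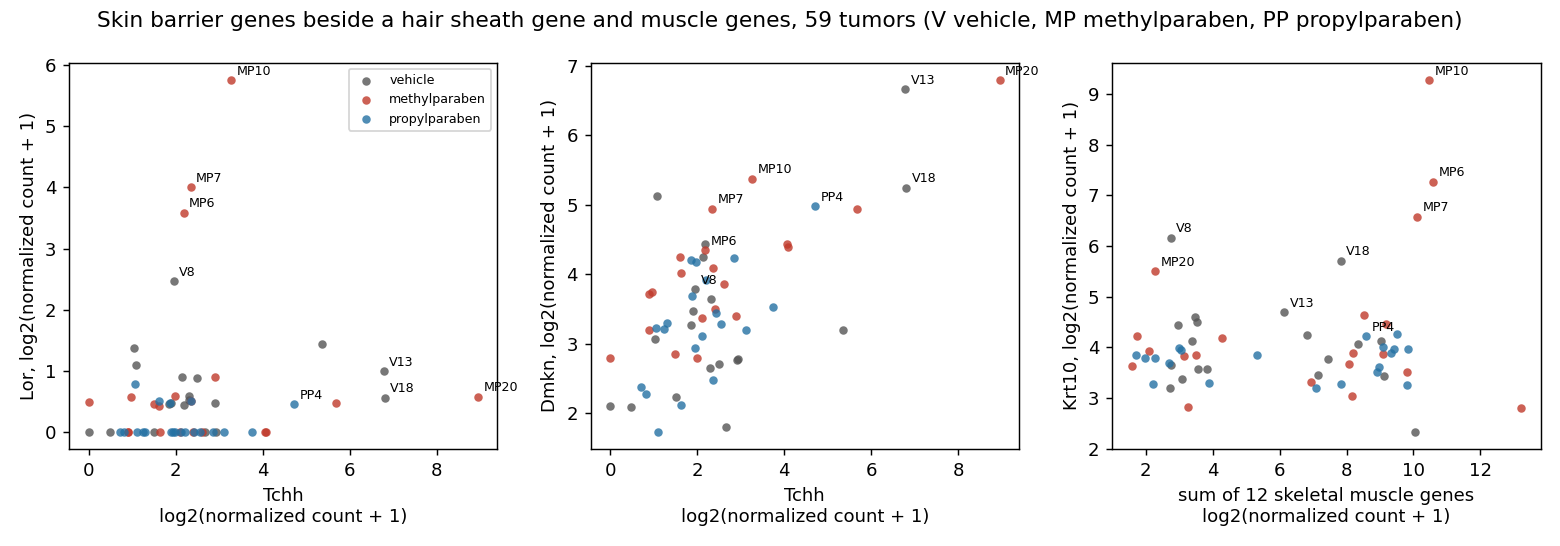
Lor (left) and Dmkn (middle) against the hair sheath gene Tchh, and Krt10 against the sum of 12 skeletal muscle genes (right), in 59 tumors, all as log2(normalized count + 1). Tchh is 8.66, 3.54, 4.08 and 2.88 in the tumors with the highest Lor, methylparaben tumors 10, 6 and 7 and vehicle tumor 8. Lor is 0.484 in methylparaben tumor 20, highest for Tchh (494), and 1.70 in vehicle tumor 9 (Tchh 40.05), rank 5 for Lor. Dmkn is 109.8 and 40.4 in methylparaben tumors 20 and 10, but 12.7 and 8.14 in vehicle tumors 8 and 9. Krt10 is high at muscle sums from 3.87 (methylparaben tumor 20) to 1541 (methylparaben tumor 6).

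Lists of further skin genes, chosen like the 9 genes with earlier results of these data known, gave the setting. Of 43 cornified envelope precursors (small proline-rich, late cornified envelope and filaggrin-like proteins), 7 were at 0 in all tumors and 2 reached a mean of 1. Their sum was 0.771 to 122 (median 4.81) in vehicle, 0.424 to 349 (median 9.56) in methylparaben and 0.512 to 11.05 (median 4.23) in propylparaben tumors. In methylparaben tumors 20 and 10 it was 349 and 83.7, and in vehicle tumors 11 and 18 it was 122 and 94.6. In vehicle tumor 11 Sprr1a made up 119.56 of the 122, and the sum of the 9 genes there was 45.2. The 2 genes in the fit were Sprr1a and Rptn. For propylparaben against vehicle Sprr1a did not pass. Rptn had means of 0.818 in vehicle, 0.181 in propylparaben and 4.05 in methylparaben tumors. It reached the filter only through methylparaben tumors, so no test of it is given. In the same contrast 0 of 13 crosslinking and protease genes, 0 of 11 barrier lipid genes and 0 of 17 suprabasal junction genes were called. The counts were 0 of 19 epidermal regulators, 0 of 5 other epidermal keratins, 0 of 8 wound keratins and alarm genes and 0 of 12 hair follicle genes. Over all genes the share was 0.0276 %. In the wound list Stfa3 (means 0.836 in vehicle and 0.112 in propylparaben tumors) and Krt16 (0.863 and 0.290) also entered only through methylparaben tumors. For genes that entered in this way the counts are no test.

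For methylparaben against vehicle, 1 of the 87 genes tested in these 8 lists passed, a share of 1.15 % beside 1.32 % of all genes. Gata3, a regulator of both epidermal and luminal mammary cells, was higher by 0.56 ± 0.14 (SE, limma adjusted p = 0.03553), with means of 472 and 350. For propylparaben against vehicle its difference was 0.49 ± 0.14 (SE, limma adjusted p = 0.07741). The basal keratins Krt5 and Krt14, which both epidermis and mammary basal cells make, were above 0 in all tumors. Krt14 had medians of 63.7, 58.5 and 67.6 and Krt5 of 32.97, 51.96 and 46.8 in vehicle, methylparaben and propylparaben tumors. The mammary epithelial genes Krt8 (37.1 to 137), Krt18 (67.3 to 232) and Epcam (235 to 582) were present in every tumor, the high ones included.

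Markers of tissue around the gland differed among the high tumors. The summed level of 12 skeletal muscle genes was 1425, 1541 and 1106 in methylparaben tumors 10, 6 and 7, but 5.75 in vehicle tumor 8 and 3.87 in methylparaben tumor 20, where the range was 5.57 to 1051 in vehicle, 1.99 to 9502 in methylparaben and 2.30 to 919.8 in propylparaben tumors. For 12 fat cell genes the sums were 759, 1212 and 1130 in the first 3 tumors and 57.9 and 125 in the other pair, with ranges of 57.9 to 895, 107 to 15565 and 101 to 4048. Vehicle tumors 13 and 18 had muscle sums of 69.2 and 227 and fat sums of 85.7 and 145. Methylparaben tumor 5 had the highest muscle and fat sums of all and the lowest Krt10 of its group, 5.98. All 12 muscle genes and all 12 fat genes reached a mean of 1.

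The mast cell gene Cma1 was 10.7, 11.02 and 13.4 in methylparaben tumors 10, 6 and 7, and 0.411 and 0.484 in vehicle tumor 8 and methylparaben tumor 20. In vehicle tumors 13 and 18 it was 1.64 and 0.466. Its range was 0.411 to 14.1 in vehicle, 0.484 to 25.5 in methylparaben and 0 to 12.06 in propylparaben tumors. The highest level was in methylparaben tumor 18, where Krt10 was 10.4. The sum of 12 fibroblast genes was 4798, 3504 and 3388 in methylparaben tumors 10, 6 and 7, and 393 and 1470 in vehicle tumor 8 and methylparaben tumor 20. In vehicle tumors 13 and 18 it was 804 and 1082. The group ranges were 393 to 5042, 1434 to 4798 and 917 to 5670. The part that these tissues have in the levels of the 9 genes was not tested.

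Lists of the remaining skin cell types gave mixed levels. Of 10 melanocyte genes, Oca2 and Slc45a2 were at 0 in all tumors, and Tyr (mean 0.00667), Tyrp1 (0.0404), Mlana (0.179) and Dct (0.253) were near 0. The list's sum was 93.2 to 237 in vehicle, 144 to 227 in methylparaben and 138 to 238 in propylparaben tumors. It came mostly from Sox10 (median 160.5), and Mitf had a median of 13.4. Of 35 hair follicle genes found in the table, 1 was at 0 in all tumors and 12 reached a mean of 1, and the sum of the list (350 to 1022, 465 to 1751 and 509 to 823 in the 3 groups) was set mostly by Sox9 (median 599.7), which mammary epithelium also expresses. The sebaceous list of 12 genes had sums of 47.9 to 105, 60.6 to 701 and 57.99 to 129, with the maximum in methylparaben tumor 5. There Cidea, which fat cells also make, was 563.71, in the tumor with the highest fat sum. Wound keratins and alarm genes (18 found) had sums of 59.4 to 1184, 48.47 to 1224 and 46.2 to 249, with the maximum in methylparaben tumor 20, where Krt6a was 339 and S100a8 was 352.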

How the data were processed

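Total RNA from 59 mammary tumors was sequenced by the submitters. Per the submitters' processing notes the tools were bcl2fastq 2.20.0.422, STAR 2.6.1d and HTSeq 0.10.0 and the genome GRCm38. No source used here gives the annotation, the strand setting or the intron definition. The deposited unit is a signal for each gene and each gene's introns, named normalized counts by the authors in the files. Of the gene values, 100 % were whole multiples of 1 read's worth (within 1e-06 reads), and the values equal CPM with trimmed-mean factors (largest gap 5.11e-13 %). The 5 HTSeq summary lines, 27.7 to 47.9 % of a library's total, were left out.

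Groups came from the treatment label. With limma 3.58.1 (trend, R 4.3.3), log2(value + 1) of all 59 libraries entered a single fit over features whose mean was at least 1, and calls needed an adjusted p under 0.05. Correlations used scipy 1.17.1. GENCODE M21 matched 55240 of 55421 identifiers. The members and lists were chosen with earlier results of these data known. Named genes were the 9 genes, reference keratins and Epcam, up to 3 genes of highest mean per list, the 15 most alike genes, and others named as chosen later. Alternatives were other pseudocounts, filters, scalings, fits and left-out libraries, a fit of vehicle and propylparaben tumors alone, and tests of the recovered reads by edgeR 4.0.16 and DESeq2 1.42.0, which called 22 and 231 genes for propylparaben and 619 and 640 for methylparaben against vehicle. The fit was tested on simulated data.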

Additional observations from a re-analysis of the deposited data

How the results depend on the processing

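For propylparaben against vehicle, Krt10, Krt15, Sbsn and Dmkn stayed short of the threshold under all alternatives that gave an adjusted p. DESeq2 gave none for Sbsn. Krt1, Flg, Lor and Krtdap were in the fit only through methylparaben tumors, so only their differences are given. Signs turned for Krtdap with the first principal component as covariate (0.0202). With single libraries left out Krtdap ranged from -0.196 to 0.0639 (without vehicle tumor 18) and Dmkn from -0.254 to 0.0163 (without vehicle tumor 13). Counts over all genes depended on the setting, and the cause was not tested. For propylparaben against vehicle, 4 genes were called, 2 with no filter, 16 with a mean of at least 10, 0 with only the 2 groups compared, also with the filter taken over them (chosen after seeing the data), or with the first principal component as covariate, 22 by edgeR, 231 by DESeq2 and 1 to 424 with single libraries left out (1 without vehicle tumor 4, 424 without vehicle tumor 5). For methylparaben against vehicle, 191 were called, 25 with no filter, 334 with a mean of at least 10, 18 on CPM without the authors' factors, 2 with only the 2 groups, 0 with the principal component, 5 without the 5 libraries with a scaling factor under 0.9, 619 by edgeR, 640 by DESeq2 and 1 to 932 with single libraries left out (1 without vehicle tumor 8, 932 without vehicle tumor 5). Between the esters 0 were called, 17 by edgeR and 0 to 1 with single libraries left out.

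For propylparaben against vehicle, count tests moved Krt1 from -0.248 to -2.3, Lor from -0.529 to -2.4 and Krtdap from -0.106 to -1.39 (DESeq2), and Flg from -0.43 to -2.76, Krt10 from -0.321 to -0.609 and Dmkn from -0.163 to -0.658 (edgeR). A pseudocount of 10 gave -0.0595 for Krt1, -0.106 for Flg, -0.0844 for Lor and 0.0189 for Sbsn. Count tests also widened the untested methylparaben differences, to 3.32 for Krt1, 1.53 for Krt10, 2.38 for Lor and 2.04 for Krtdap by edgeR and 2.62 for Flg by DESeq2. Why count tests gave larger differences was not tested. The mean of Krt10 in methylparaben tumors was 56.1, and 26.4 without methylparaben tumor 10. Without the 2 tumors farthest in Krt10, the r of Krt10 with Krt15 turned from -0.13 to 0.0616 in vehicle and from 0.11 to -0.11 in propylparaben tumors, with Krtdap from -0.06 to 0.0453 and with Sbsn from 0.10 to -0.0264 in propylparaben tumors. No paired analysis was possible because replicate numbers here follow record order and nothing in the labels ties tumors across groups. Depth limits Krt1, Flg, Flg2, Lor and Krtdap, which had 0 reads in most or many tumors.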
